A study of Drosophila melanogaster with 51 samples.

Results

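Far intergenic open regions are stretches of accessible chromatin that lie outside every annotated gene and at least 1 kb from every annotated transcription start site (TSS). They were taken from the list of regions called open by ATAC-seq, an assay in which a transposase inserts sequencing adapters into exposed DNA, in basal Kc167 cells. Kc167 is a cell line from Drosophila melanogaster embryos that resembles hemocytes, the blood cells of the fly. A region was chosen when its midpoint was outside all genes of the Ensembl annotation, of any type, and 1 kb or more from all TSSs, and this gave 997 of 16118 regions (6.19%). The basal cells carried no expression construct and received no copper, and their 3 libraries are combined in the list, which holds positions without heights. The other 48 libraries of the 51, from stable lines with copper-inducible Hox, Hth or Gcm constructs, were not analysed here. No value below has a replicate error, and the depth behind a region is unknown. The results describe this 1 cell line.

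In flies, enhancers and insulators are often found between genes. Enhancers are bound by factors that recognise short motifs and act on a promoter that can be many kb away. Insulators are sites at which proteins such as Su(Hw) and CTCF, both zinc finger proteins, separate neighbouring regulatory domains. Open chromatin marks both, since bound factors displace nucleosomes. Promoters of widely expressed fly genes carry a different set of motifs, among them the DNA replication-related element (DRE) and motif 1, the site of M1BP.

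Sequence windows of 200 bp around the midpoint are shown for the 7 motifs whose frequency differed from that in the flanks, because the motif content was read from such windows. For each motif the window with the most matches outside the right arm of chromosome 2 is given, and of several with equally many, that of the widest region. One region of that arm, not shown, has 2 Su(Hw) matches. Capitals mark the matches, and each sequence is the plus strand of the Release 6 (dm6) assembly, 5′ to 3′. The first, at chr3R:16798642-16798841 between Glut3 and abd-A, the Hox gene of the middle abdomen, holds a match to the Su(Hw) core TGCATACTT on the minus strand. The second, at chr3R:14391327-14391526 between soti and cv-c, holds 2 matches to the CTCF core GCGCCNCCT, and the third, at chr3L:11010348-11010547 between klu and Fad2, holds 10 overlapping matches to GAGAGAG, the site of the GAGA factor. The fourth, at chr3L:11273091-11273290 between scyl and Dyro, has 3 matches to GATAAG, the site of GATA factors such as Serpent. The fifth, at chr2L:7086392-7086591 between the growth factor genes Pvf2 and Pvf3, has 2 matches to TGANTCA, the pattern used here for AP-1. Its N is any base, which is broader than the AP-1 consensus. The sixth, at chr2L:12011890-12012089 between Rh5 and Wdr81, has 2 matches to TTTATNG, the site of the Hox protein Abd-B, which was rarer in these regions than in their flanks. The seventh, at chr3R:5065264-5065463 between plh and corto, has 2 overlapping matches to TAATTA, a homeodomain core that was also rarer. The last, at chrX:1399385-1399584, is the centre of the widest far intergenic region, between Rilpl and futsch, and has no match to any of these 7 motifs.
Su(Hw), Glut3 to abd-A: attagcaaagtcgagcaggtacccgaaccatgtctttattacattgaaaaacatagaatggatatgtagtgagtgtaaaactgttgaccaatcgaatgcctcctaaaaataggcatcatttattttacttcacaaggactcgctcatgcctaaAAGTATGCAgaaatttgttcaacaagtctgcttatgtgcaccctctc
CTCF, soti to cv-c: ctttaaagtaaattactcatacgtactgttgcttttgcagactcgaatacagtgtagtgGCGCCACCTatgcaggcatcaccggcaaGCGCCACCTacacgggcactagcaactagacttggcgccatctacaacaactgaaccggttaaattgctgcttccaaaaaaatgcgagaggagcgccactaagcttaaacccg
GAGA, klu to Fad2: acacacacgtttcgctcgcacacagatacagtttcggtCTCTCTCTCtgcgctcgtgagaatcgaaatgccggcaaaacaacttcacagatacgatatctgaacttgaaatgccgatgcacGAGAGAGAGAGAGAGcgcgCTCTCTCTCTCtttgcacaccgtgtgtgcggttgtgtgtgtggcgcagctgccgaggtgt
GATA, scyl to Dyro: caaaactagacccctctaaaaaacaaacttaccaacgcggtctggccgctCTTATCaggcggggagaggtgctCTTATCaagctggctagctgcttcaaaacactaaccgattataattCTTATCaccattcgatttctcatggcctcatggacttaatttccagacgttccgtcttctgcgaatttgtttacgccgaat
AP-1, Pvf2 to Pvf3: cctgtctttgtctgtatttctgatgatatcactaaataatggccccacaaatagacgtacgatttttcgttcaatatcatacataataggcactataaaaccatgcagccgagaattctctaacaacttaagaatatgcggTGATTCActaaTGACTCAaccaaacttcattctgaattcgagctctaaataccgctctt
Abd-B, Rh5 to Wdr81: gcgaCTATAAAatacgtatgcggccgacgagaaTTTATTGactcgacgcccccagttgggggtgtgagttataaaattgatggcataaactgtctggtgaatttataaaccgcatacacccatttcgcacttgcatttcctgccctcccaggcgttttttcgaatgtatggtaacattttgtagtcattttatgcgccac
TAATTA, plh to corto: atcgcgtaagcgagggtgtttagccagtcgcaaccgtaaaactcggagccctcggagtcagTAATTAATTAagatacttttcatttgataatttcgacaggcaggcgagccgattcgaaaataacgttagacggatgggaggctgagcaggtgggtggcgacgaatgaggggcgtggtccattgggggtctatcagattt
widest, Rilpl to futsch: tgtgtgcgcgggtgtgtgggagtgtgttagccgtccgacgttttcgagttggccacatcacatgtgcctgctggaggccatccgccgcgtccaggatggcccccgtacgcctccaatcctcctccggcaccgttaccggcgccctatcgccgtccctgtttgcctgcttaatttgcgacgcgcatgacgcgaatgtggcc

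Matches to the Su(Hw) core are shown with 10 bp on either side, oriented so that the core reads TGCATACTT, since this motif was more frequent here than in each class compared. The core is in capitals, and the name gives the coding genes on either side. The 8 sites are those in the widest regions with a match outside the right arm of chromosome 2, in regions of 530 to 261 bp. They lie at chr3R:16798785-16798813, chr2L:14706383-14706411, chr3R:31086589-31086617, chrX:19028758-19028786, chr3L:1913706-1913734, chrX:22652628-22652656, chr2L:4345870-4345898 and chr2L:12455259-12455287.
Glut3 to abd-A: aacaaatttcTGCATACTTttaggcatga
osp to CG15282: actaaaatgtTGCATACTTttagggatac
Sox100B to CG11317: attatttcgcTGCATACTTtcgggcgagc
CG43759 to Diedel3: gaacatgcatTGCATACTTttgggccggc
dsb to Dbx: gatacagctcTGCATACTTttaggaagat
Cda4 to CG12446: tggaaaaggcTGCATACTTttgggcgctg
Atet to CG15429: tgcaaaccctTGCATACTTttcggcgttg
CG5418 to bun: aaaataacagTGCATACTTttcggcgaaa

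In 200-bp windows, Su(Hw) had the largest ratio to the flanks of the 20 motifs. It was found in 34 of the 997 windows (3.41%), compared with 5 of 1778 flank windows (0.281%), which were centred 1.5 kb beyond each region edge and touched no open region. The ratio of these shares was 12.1 (95% interval 4.71 to 31.2, adjusted p = 4.51e-06, n = 135 blocks). With flanks 3 kb away it was 7.84, and with 300-bp windows it was 5.13, below the 5.62 of CTCF, and both passed. Here and below, ratios were tested by a Wald test over 1-Mb blocks of the genome, n is the number of blocks, values in brackets after a ratio are its 95% interval, and with few matches the test is approximate. The Su(Hw) share was 1.39% in the 2948 far intronic open regions, which lie in introns, in no exon and equally far from TSSs, and 0.222% in the 8556 open regions within 250 bp of a protein-coding TSS. The ratio to the far intronic regions was 2.45 (1.51 to 3.99, adjusted p = 0.0037, n = 139 blocks) and that to the TSS regions was 15.4 (8.31 to 28.4, adjusted p = 1.08e-13). Over all open regions, 0.794% of windows had a match. Of the 34 regions with a match, 15 had their midpoint in repeat-masked sequence, compared with 155 of all 997. Without masked sequence the ratio to far intronic regions was 1.72, and that call was lost. It was also lost at 2 kb from every TSS, where the ratio was 2.38.

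The 35 Su(Hw) matches of the 200-bp windows were mostly near the midpoint. The search reached 100 bp to either side of it, and 34 of the 35 cores lay wholly inside their region. The median distance from the midpoint was 15 bp, and 28 of 35 were within 50 bp. The sequence beside the core was also shared, as the sites printed above show. Counted from the first base of the core, position 14 was G in 32 of 35 matches (91.4%) and position 15 was C in 29 (82.9%). In the 42 matches of the far intronic windows the same bases were found in 25 (59.5%) and 23 (54.8%), and whether these differ was not tested.

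Regions with a Su(Hw) match in the 200-bp window were narrower than those without. Their widths ran from 117 to 530 bp with a median of 210 bp, compared with 262 bp in the regions without a match. The ratio of the geometric means was 0.742 (0.653 to 0.843, adjusted p = 0.000176 over 20 motifs, n = 135 blocks). In regions wider than the window, a match farther from the midpoint was not counted. The part of this in the difference was not tested. The nearest protein-coding TSS was open, that is, had an open region within 250 bp, for 6 of the 34 (17.6%), compared with 44.7% of the regions without a match. This difference did not pass the test after adjustment over the 18 motifs that gave a value (ratio 0.395, 0.191 to 0.819, adjusted p = 0.0777, n = 135 blocks), and of 9 alternatives it passed only at 500 bp from every TSS (ratio 0.421). Of the 18 motifs, 2 passed. The nearest coding TSS was open for 27.2% of the regions with a Runx match and 45.2% of those without (ratio 0.601, 0.427 to 0.846, adjusted p = 0.0346, n = 135 blocks). For NF-kB, the family of the immune factors Dorsal and Relish, it was open for 66.7% and 43.1% (ratio 1.55, 1.17 to 2.05, adjusted p = 0.0346, n = 135 blocks). The Runx call was lost under 8 of 9 alternatives (ratios 0.569 to 0.781) and the NF-kB call under 7 of 9 (1.38 to 1.59). The 34 regions lay on 5 arms. They were 10 of the 144 far intergenic regions on 2R, 8 of 211 on 3R, 7 of 218 on 2L, 5 of 141 on X and 4 of 267 on 3L. Whether the arms differ was not tested. One, the 132-bp region at chrX:18239444-18239575, lay between CG33639 and upd2, which encodes a ligand of the JAK/STAT receptor. Another, at chr3R:10437099-10437302, lay between Cyp12e1 and hth, the gene of the Hox cofactor Homothorax. The site between vtd and RpL15 lay in sequence of which 37.9% of bases were unique in the genome, measured as 31-mers found at 1 place.

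**Figure D1:**
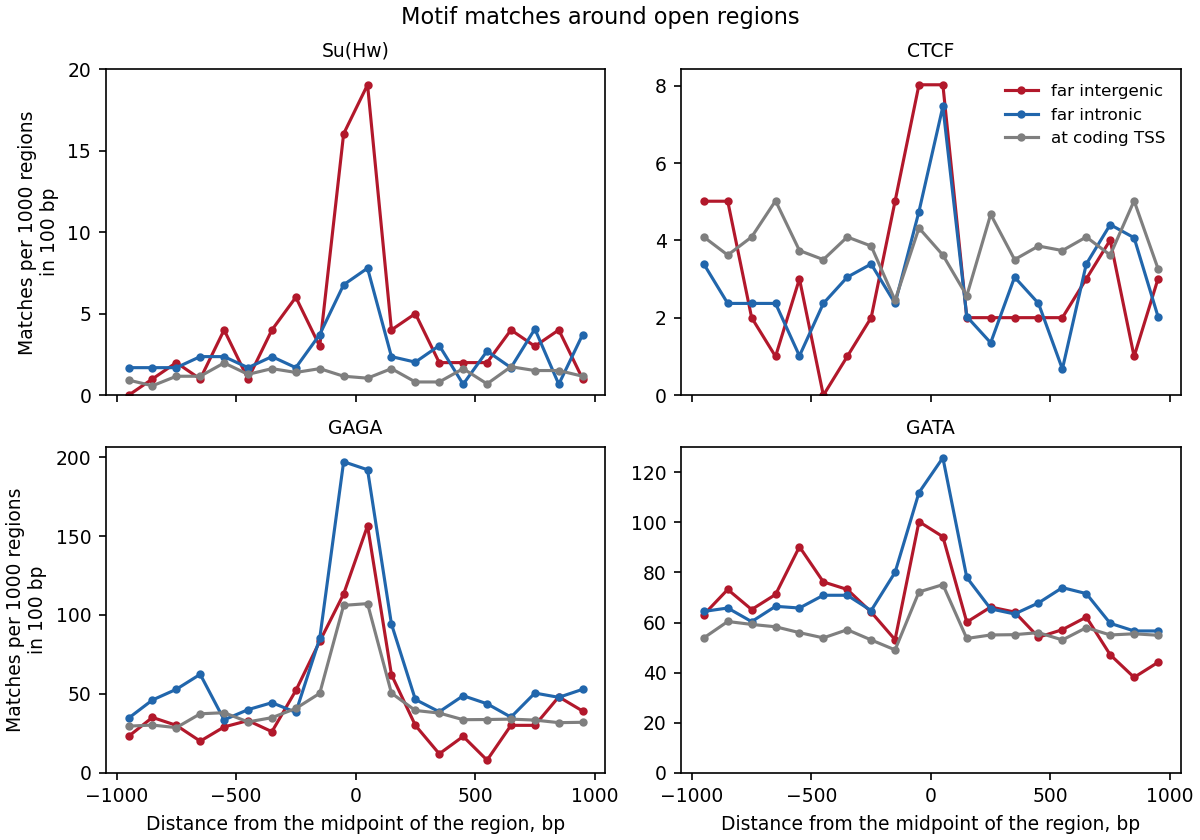
Matches to the Su(Hw), CTCF, GAGA and GATA motifs per 1000 regions, in bins of 100 bp of distance from the midpoint of the region in bp, for far intergenic (red), far intronic (blue) and TSS (grey) open regions. The Su(Hw) line of the far intergenic regions reaches 16.1 and 19.1 matches per 1000 regions in the bins on either side of the midpoint, where the far intronic line reaches 6.78 and 7.80, and in these bins the far intronic line is the highest for GAGA and GATA.

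CTCF matches were also more frequent than in the flanks. They were found in 14 windows (1.40%), compared with 0.169% of flank windows, with a ratio of 8.32 (2.51 to 27.6, adjusted p = 0.00255, n = 135 blocks). The share in far intronic regions was 1.15%, and the ratio to them was 1.22 (0.648 to 2.29), which did not pass the test and leaves room for a difference in either direction. The regions with a CTCF match were again narrower than the others, with a ratio of geometric means of 0.706 (0.584 to 0.854, adjusted p = 0.0042, n = 135 blocks), a call lost with 300-bp windows (0.760), at 500 bp from every TSS (0.782) and with transposable elements not counted as genes (0.781). Here too, matches outside the window were not counted. The count of matches is small, and among regions of 200 bp or wider the ratio to the flanks was 7.27 and the call was lost.

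The sites of 3 activator families were more frequent in the far intergenic regions than beside them. GAGAGAG, bound by the GAGA factor, which helps to keep chromatin open, was present in 8.73% of windows and 2.02% of flanks (ratio 4.31, 2.91 to 6.37, adjusted p = 2.94e-10, n = 135 blocks). GATAAG was present in 16.2% and 7.87% (ratio 2.06, 1.66 to 2.56, adjusted p = 7.69e-09, n = 135 blocks), and TGANTCA in 6.22% and 3.88% (ratio 1.60, 1.15 to 2.24, adjusted p = 0.0211). Serpent, a GATA factor, specifies hemocytes, and AP-1 is the Kay and Jra dimer downstream of JNK. Over all open regions these 3 motifs were found in 10.9%, 14.6% and 5.25% of windows. The AP-1 call was lost with flanks 3 kb away (ratio 1.35) and at 2 kb from every TSS (1.54).

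Compared with far intronic regions, the far intergenic regions held fewer GAGA sites. GAGAGAG was present in 13.7% of far intronic windows, which gave a ratio of 0.638 (0.511 to 0.797, adjusted p = 0.00216, n = 139 blocks). GATAAG was in 19.2% of them, and the ratio of 0.848 (0.723 to 0.994) did not pass after adjustment. At 2 kb from every TSS the GAGA ratio was 0.660, and the call was lost. Su(Hw) and GAGA were the only 2 of the 20 motifs that passed against the far intronic regions.

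Motifs of promoters were rarer than in TSS windows. TATCGATA, the DRE, was found in 9 of the 997 windows (0.903%) and in 8.88% of TSS windows, a ratio of 0.102 (0.0530 to 0.195, adjusted p = 1.40e-09, n = 139 blocks). GGTCACAC, the site of M1BP, was found in 4 windows (0.401%) and in 9.13% of TSS windows, a ratio of 0.0440 (0.0167 to 0.115, adjusted p = 1.50e-08, n = 139 blocks). They were not rarer than in sequence away from promoters. The DRE ratio was 2.675 to the flanks and 2.96 to far intronic windows, and that of the M1BP site was 1.78 and 1.48. None of these passed after adjustment. AP-1 sites (ratio 1.61), GATA sites (1.26) and Exd-Hox sites (1.59) were more frequent than in TSS windows after adjustment, although GATA did not pass at 2 kb from every TSS, where its ratio was 1.26 again, nor Exd-Hox with 300-bp windows (ratio 1.35). For GAGA sites the ratio to TSS windows was 0.945 (0.766 to 1.17), which did not pass the test.

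Of 4 motifs of Hox proteins and their partners, 2 were rarer in these regions than beside them. TAATTA, the core bound by Antp-class homeodomains, was found in 9.13% of windows and 13.9% of flanks (ratio 0.657, 0.531 to 0.813, adjusted p = 0.000751, n = 135 blocks). The Abd-B site TTTATNG was found in 16.4% and 20.3% (ratio 0.810, 0.686 to 0.957, adjusted p = 0.0383, n = 135 blocks), a call that was lost under 5 alternatives, with ratios of 0.816 to 0.911. TGATTNAT, the site of Exd-Hox dimers, was found in 4.91% and 7.03% (ratio 0.699), which did not pass after adjustment. The Hth site CTGTCA was found in 7.62% and 8.49% (ratio 0.898, 0.702 to 1.15), which did not pass either. The first 3 of these motifs are rich in A and T, while the far intergenic windows had a mean GC content of 44.9% against 41.7% in the flanks, a difference of 3.23 percentage points (2.53 to 3.93, p = 1.17e-15, n = 135 blocks). The part of base composition in the lower counts of these 3 was not tested. Nor was its part in the higher counts of other motifs, such as CTCF, whose core is rich in G and C. The GC content of far intronic windows was also 44.9% (difference 0.0129 points, -0.673 to 0.698). Of the flank windows, 23.3% had their midpoint in a gene.

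**Figure D2:**
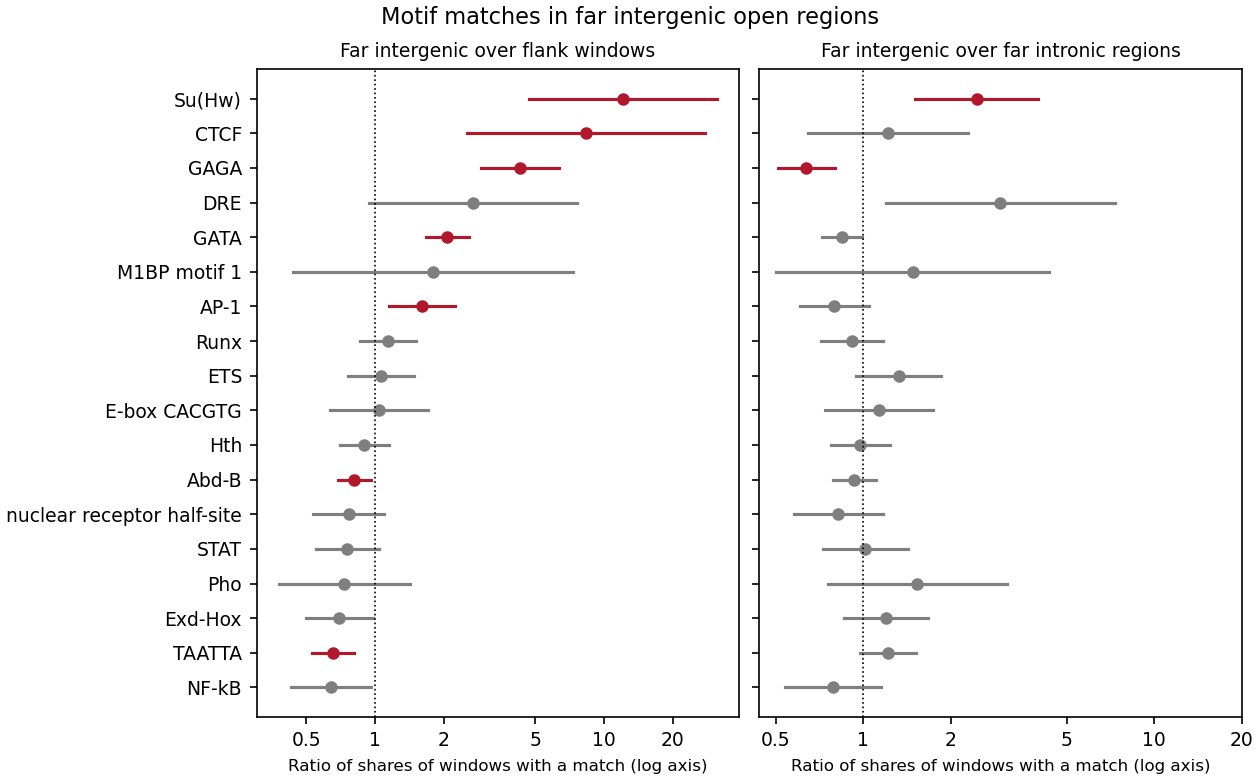
Ratio of the share of far intergenic windows with a motif to that of flank windows (left) and of far intronic windows (right), on log axes, for 18 motifs. Points are ratios, lines are 95% intervals, red marks adjusted p under 0.05, and Gcm and Zelda, with 2 far intergenic matches each, are left out. Su(Hw) is at 12.1 on the left and 2.45 on the right, and GAGA moves from 4.31 to 0.638.

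A search over all 6-mers, with reverse complements joined, gave more than the chosen motifs. Against the flanks, 185 (8.89%) were more frequent and 170 (8.17%) less frequent at an adjusted p under 0.05. When repeat-masked sequence was left out, 103 were less frequent. The 5 largest ratios were those of GCGCGC (3.91), GGCGCC (2.76), CGCGCG (2.73), AGAGAG (2.62) and AGAGCG (2.60). The 5 smallest were those of AGGACC (0.244), AAGGAT (0.249), CAGGAC (0.311), AGGATC (0.324) and CAGGAG (0.362), which have 2 to 4 G or C each. Of the flank windows, 23.3% had their midpoint in a gene, and the part of this in the ratios was not tested. The 6-mers that were more frequent had on average 3.71 G or C of their bases, those that were less frequent 1.67, and all 6-mers 3.

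Against the far intronic regions few 6-mers differed. In total 7 (0.337%) were more frequent and 5 (0.24%) less frequent. Of the former, AGTATG (ratio 1.65) is, on the other strand, CATACT, which lies inside the Su(Hw) core, as does ATACTT, the other strand of AAGTAT (ratio 1.505). CCTAAA (ratio 1.72) is TTTAGG on the other strand, the letters that end the core and follow it in the Glut3 to abd-A site. AGTATG was present in 119 far intergenic windows, AAGTAT in 143 and CCTAAA in 75, so most windows with them had no Su(Hw) match, which 34 had. The 2 largest ratios were those of CTTACC (2.33, 1.60 to 3.40) and AGGTAA (2.06, 1.43 to 2.97). The other strand of CTTACC is GGTAAG, letters found at the start of many introns, and whether these windows hold splice sites was not tested. CAGTAC had a ratio of 1.88. The 5 that were less frequent were GAGAGA (0.685), AGAGAG (0.713), AAGAGA (0.731), AAAGAG (0.734) and AAACAA (0.766), of which all but AAACAA are made of A and G, as the GAGA site is. The counts depended on the setting, from 0 in either direction with regions of 200 bp or wider to 41 more frequent and 23 less frequent at 500 bp from every TSS.

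The regions were sparse in the sequence that could hold them. Outside genes and 1 kb from every TSS lay 30.1 Mb, with 33.1 regions per Mb (28.1 to 39.1), compared with 67.2 per Mb (59.9 to 75.5) in 43.9 Mb of intron at the same distance. The ratio was 0.493 (0.421 to 0.577, p = 2.56e-15, n = 142 blocks). Of the intergenic sequence, 75% was unique as 31-mers, and 91.5% of the intronic, and reads with several alignments were dropped by the authors, so repeated sequence was less likely to be listed. Within unique sequence the ratio was 0.601, still past the test.

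The density fell with distance from a TSS in both classes, up to 50 kb. From 1 to 2 kb it was 63.1 far intergenic regions per Mb, from 2 to 5 kb 37.9, from 5 to 10 kb 29.1, from 10 to 20 kb 17.0 and from 20 to 50 kb 8.67. The ratio to the far intronic density was between 0.453 and 0.565 in these 5 classes and passed the test in the first 4. Beyond 50 kb, where 14.6% of the sequence was unique, there were 11 far intergenic regions at 10.7 per Mb (3.63 to 31.4) and 1 far intronic region at 1.57 per Mb, with a ratio of 6.79 (0.608 to 75.7) that did not pass the test. The share of unique sequence also fell, from 91.2% at 1 to 2 kb to 30.9% at 20 to 50 kb, and its part in the decline was not tested. The distance to the nearest TSS of the 997 regions was 1010 bp to 118154 bp with a median of 3202 bp. Just inside the limit of 1 kb the nearest regions were 1010, 1011 and 1013 bp from a TSS and 850, 193 and 440 bp wide, and just outside it they were 986, 988 and 994 bp away and 1236, 145 and 201 bp wide.

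**Figure D3:**
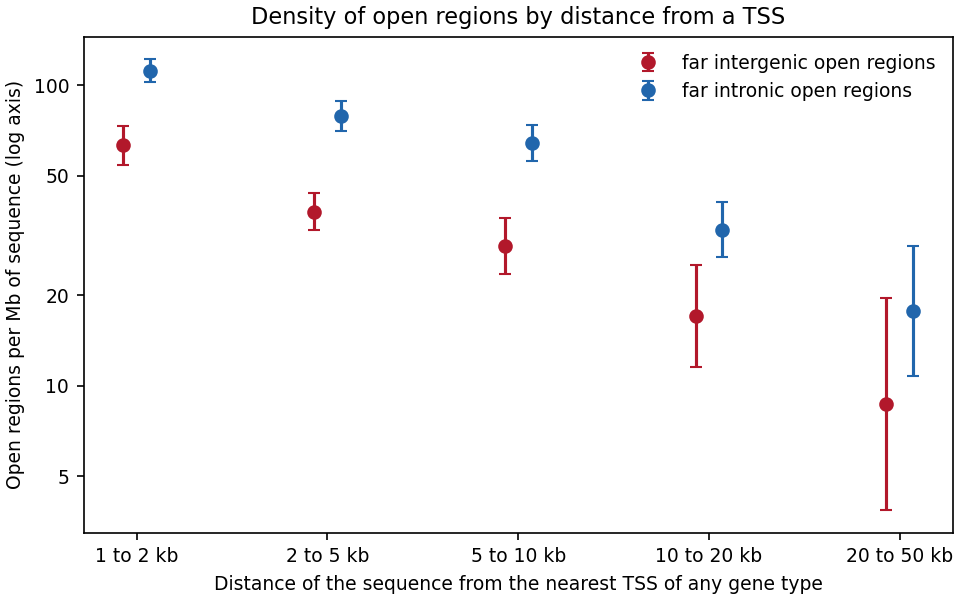
Open regions per Mb of sequence, on a log axis, by class of distance from the nearest TSS, for far intergenic (red) and far intronic (blue) regions, with 95% intervals over 1-Mb blocks. The far intergenic values go from 63.1 to 8.67 per Mb and lie below the far intronic values in each of the 5 classes.

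The median width lay between those of intronic and promoter regions. The narrowest far intergenic region had 106 bp and the widest 1510 bp, the median was 260 bp, the quartiles were 187 and 420 bp, and all of them covered 328.8 kb. The median was 301 bp for far intronic and 212 bp for TSS regions. The ratio of geometric means was 0.922 to far intronic regions (0.883 to 0.962, p = 0.000283, n = 139 blocks) and 1.17 to TSS regions (1.13 to 1.22, p = 2.38e-12). Among regions of 200 bp or wider the first of these was 0.968 and did not pass.

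**Figure D4:**
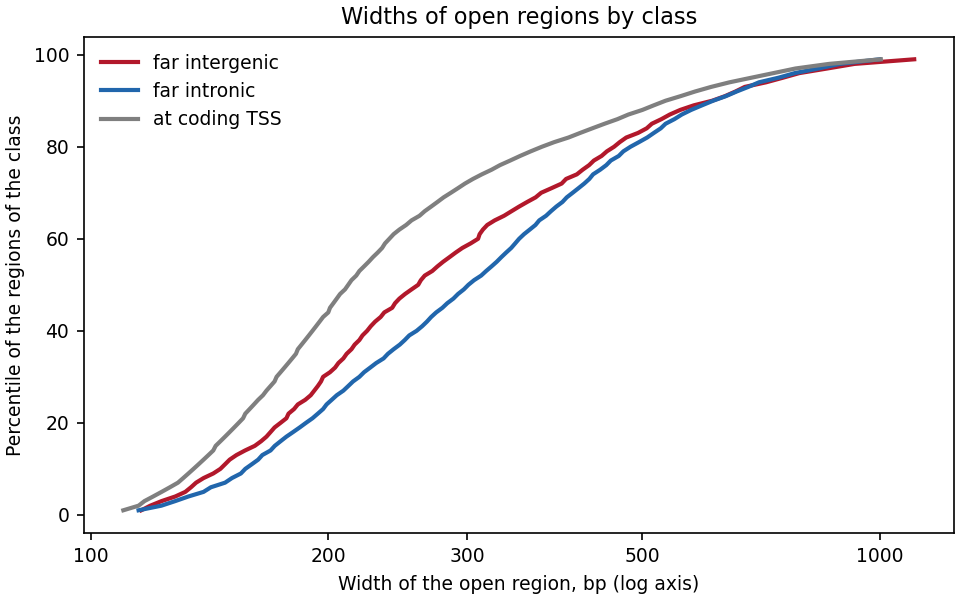
Percentiles of the width of open regions, in bp on a log axis, for far intergenic (red), far intronic (blue) and TSS (grey) regions. The far intergenic line, with a median of 260 bp, runs between the medians of 212 bp and 301 bp of the other classes. It crosses the far intronic line near the upper end. From the 94th percentile (717.2 against 702.5 bp) to the 99th (1104.9 against 998.9 bp) the far intergenic widths are larger.

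In all, 14 of the 997 (1.40%) were 1000 bp or wider, compared with 1.02% of far intronic, 1.05% of TSS and 1.005% of all open regions. The widest, 1510 bp, lay at chrX:1398730-1400239, 6431 bp from a TSS, between Rilpl and futsch, a microtubule-associated protein of neurons. The next, 1389 bp at chr3R:5064670-5066058, lay between plh and corto, which encodes a chromatin factor. It was followed by a region of 1304 bp at chr2L:12011338-12012641 near Rh5, a rhodopsin, 1 of 1261 bp at chr3L:27261031-27262291 near RpL15, and 1 of 1260 bp at chr2L:5476173-5477432 beside mid, a T-box factor. The region of 1251 bp at chr3L:21453193-21454443 lay between Syx7 and croc, a forkhead factor, and that of 1214 bp at chr2R:20270638-20271851 between CG8908 and CG10444. The region of 1203 bp at chrX:7578900-7580102 lay between CG11369 and CG12689. The region of 1176 bp at chr3L:12674130-12675305 lay between caup and mirr, homeodomain genes of the Iroquois complex, and that of 1126 bp at chr3L:773978-775103 between hng3 and CG13898.

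The regions were grouped in a minority of intervals between coding genes. Of 3877 such intervals with eligible sequence, 569 (14.7%, Wilson 95% interval 13.6 to 15.8) held a far intergenic region, and 384 of these held exactly 1. The 29 intervals with 5 or more held 207 of the 997. Intervals with more eligible sequence held a region more often, from 3.81% of the 1678 with under 1 kb to 45.1% of the 71 with 50 kb or more. Of 334 intervals with 20 kb or more, 186 held none. The largest empty ones were WDY to FDY on Y and Dbp80 to eIF4B on 3L, with 15.04% and 11.9% unique sequence. The nearest open region of any class was within 1 kb for 480 of the 997 (48.1%), compared with 60.8% of far intronic regions (ratio 0.792, 0.718 to 0.874, p = 6.29e-06, n = 139 blocks).

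The interval with the most regions was the 39.7 kb between hry and SrpRbeta on 3L, at 8679254 to 8718948. It held 15, from 116 to 801 bp wide, in 37.7 kb of eligible sequence. The gene hry (hairy) encodes a bHLH repressor that patterns segments and bristles, and with the 6 regions on its other side it had 21, the most of any coding gene. GATAAG was found in 5 of the 15 windows, in 3 of them 2 times, compared with 16.2% of all far intergenic windows. Whether this interval differs was not tested. The interval of CG9932 and Ttc30 on 2L held 14 regions of 128 to 476 bp in 38.7 kb. That of CG45544 and CG14506 on 3R held 9 in 34.3 kb, that of Tollo, a Toll-like receptor gene, and Best4 held 9 in 53.0 kb, and that of NijA and CG43245 held 9 in 73.0 kb, with 1 of 1104 bp. In the last of these, 5 of the 9 lay within a stretch from 39.9 to 43.9 kb.

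**Figure D5:**
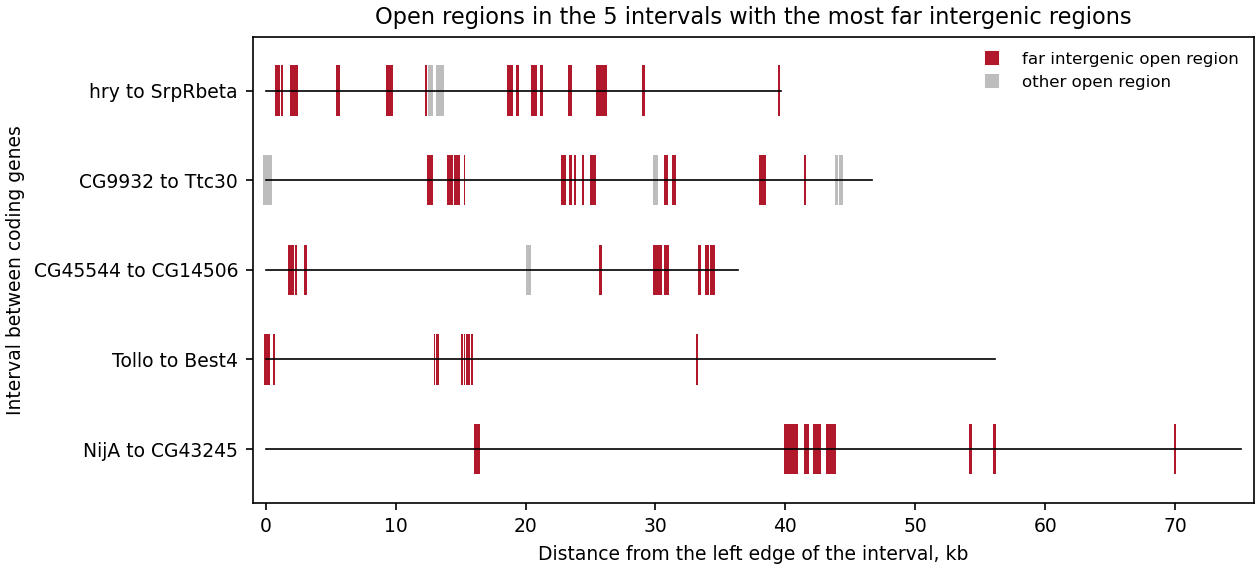
Map of the 5 intervals between coding genes that held the most far intergenic regions, with far intergenic (red) and other open regions (grey) drawn to scale against the distance from the left edge of the interval in kb. The interval from hry to SrpRbeta holds 15 regions over 39.7 kb, and that from NijA to CG43245 has 5 of its 9 between 39.9 and 43.9 kb.

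The regions were denser where the nearest protein-coding promoter was open. There were 436 regions in 9.93 Mb whose nearest coding TSS had an open region within 250 bp, or 43.9 per Mb, and 561 in 20.2 Mb, or 27.8 per Mb, where it had none. The ratio was 1.58 (1.203 to 2.07, p = 0.00114, n = 141 blocks). At 1 to 2 kb from a TSS the densities were 100.2 and 48.6 per Mb, and at 2 to 5 kb they were closer, 46.7 and 34.3. They were 42.1 and 22.4 at 5 to 10 kb, and 23.2 and 13.1 at 10 to 20 kb. The classes were not tested separately. The orientation of the flanking genes gave no difference that passed the test. Density was 41.0 per Mb between divergent genes, 30.6 between tandem and 36.6 between convergent genes, and the ratio of each to the other intervals was 1.26 (0.992 to 1.61), 0.789 (0.608 to 1.02) and 1.08 (0.803 to 1.46). At 500 bp from every TSS the divergent ratio was 1.44 and passed the test.

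Of 5903 coding genes with eligible sequence beside them, 1033 (17.5%) flanked an interval with a far intergenic region. The 16 gene lists are described by this share, by their regions per Mb (34.4 over all such genes) and by their median eligible sequence (1.73 kb over all), since longer intervals held regions more often but at a lower density. Intervals with under 1 kb of eligible sequence had 157.9 regions per Mb and those with 50 kb or more 9.73, so a list's density is to be read with its eligible sequence. A region between genes of the same list is counted for each of them, also in the list's regions per Mb. A gene beside a region is a neighbour and not a known target.

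Regions beside genes of the blood cell and signalling lists were 132 to 1016 bp wide. Of hemocyte and plasmatocyte genes, 3 of 10 (30%) had one, at 113.3 per Mb and a median of 0.0455 kb. Serpent, the GATA factor of hemocytes (srp), had regions of 438 and 496 bp 1918 and 1256 bp from a TSS, with 1 and 2 GATAAG matches. Of all far intergenic windows, 16.2% held this motif. The repressor gene zfh1 had 2 of 388 and 339 bp, and Ppn, an extracellular matrix gene, had 1 of 648 bp. Of the crystal cell and lamellocyte genes 1 of 3 had a neighbour, the Runx factor lz, with a region of 167 bp (66.9 per Mb, 4.35 kb). Of the GATA factors 2 of 4 had one, srp and grn (66.3 per Mb, 6.03 kb). Of JAK/STAT, JNK, PVR and EGFR signalling genes, 5 of 11 (45.5%) had one, at 60.1 per Mb and a median of 4.10 kb. The cytokine gene upd3 had 3, with the widest 766 bp, and the region of 1016 bp between Pvf2 and Pvf3, ligands of the PVR receptor, held the 2 AP-1 matches printed above. Of immune signalling genes 2 of 7 had one, spz (513 bp), which encodes the Toll ligand, and Tl (202 bp), its receptor, at 113.1 per Mb and 0.273 kb.

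Hormone, patterning and Notch genes followed. Of ecdysone response genes, 4 of 9 (44.4%) had a neighbour, at 145.5 per Mb and a median of 2.67 kb. Eip75B, a nuclear receptor induced by the hormone, had 6 regions, 226 to 773 bp wide, the ABC transporter gene E23 had 2, and Eip78C had 1 of 753 bp. Of body patterning regulators, 26 of 55 (47.3%) had one, but their median eligible sequence was 18.0 kb, and their density of 44.4 per Mb was nearer to that of all genes. After hry they were led by tsh, a zinc finger homeotic gene with 4, and 6 genes with 3 each, the homeobox genes ap, B-H2, caup and mirr, the T-box gene mid and the ligand gene wg. Neighbours share regions here, and the 1176-bp region between caup and mirr is counted for both. Of the Hox genes, 4 of 8 had one, with 2 beside Dfd, 1 beside Scr and 1 beside abd-A, at 49.2 per Mb and 10.6 kb. The Scr region lay between Dfd and Scr and is counted for both. Of Hox partners and expressed factors 1 of 3 had one, hth with 2 (20.1 per Mb, 5.69 kb). Of Notch pathway genes 4 of 12 had one, at 74.2 per Mb and 2.79 kb, with 3 beside E(spl)m7-HLH, a bHLH repressor, 2 beside the ligand gene Ser and 1 beside E(spl)mbeta-HLH.

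The remaining lists had a median eligible sequence of 1.24 to 4.16 kb, compared with 1.73 kb over all genes. Among all the lists, the short one of chromatin and insulator genes had the largest share (57.1%) and the highest density. Of 7 chromatin and insulator genes, 4 had a neighbour, at 300.3 per Mb and a median of 1.95 kb, with 8 regions beside Su(z)2 and 6 beside Psc, Polycomb group genes that adjoin each other, and 2 between ph-d and ph-p, a duplicated pair that shares them. Chemoreceptor genes had one in 18 of 97 (18.6%), led by Gr93a and Or67d with 4 each and Gr93b with 3, at 36.6 per Mb and 4.16 kb. A region of 528 bp between Gr93a and Gr93b is counted for both. Cuticle protein genes had one in 11 of 55 (20%), with 4 beside Cpr92F and 2 each beside Cpr11A and Cpr51A, at 77.9 per Mb and 1.38 kb. Cytosolic ribosomal protein genes had one in 6 of 35 (17.1%), with 6 beside RpL15, 1 beside RpL17 and 1 beside RpL37-1, at 29.9 per Mb and 1.34 kb. Neuronal genes had one in 3 of 13 (23.1%), Sh, Syt1 and futsch with 1 each, at 46.2 per Mb and 1.24 kb. Muscle genes had one in 2 of 15 (13.3%), Act57B with 3 and bt with 1, at 124.4 per Mb and 1.31 kb.

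By arm, the density was 42.2 regions per Mb on 2L (218 regions), 37.9 on 3L (267), 34.9 on X (141), 33.5 on 3R (211) and 26.4 on 2R (144), with intervals that overlapped. Per Mb of unique sequence the same 5 arms had 38.5 to 49.5. Chromosome 4 held 7 regions in 0.0282 Mb. Of the 10 open regions listed on Y, 9 were far intergenic, at 4.37 per Mb, in sequence of which 16.0% was unique. Kc167 is generally described as a female line. The Y regions were 108 to 667 bp wide, and between 18.7% and 100% of their bases were unique in this assembly. Their origin was not tested.

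The 5 regions farthest from any TSS were 4 on Y and 1 on 3R. They lay at chrY:1425653-1425967 (118154 bp), chr3R:266608-266726 (113134 bp), chrY:1419182-1419804 (111837 bp), chrY:1418106-1418772 (110783 bp) and chrY:1447376-1447483 (97096 bp). The nearest TSS to each was that of a transposable element, since the annotation lists 5889 of these among its 24166 genes. In total the nearest TSS was that of a protein-coding gene for 591 of the 997, of a noncoding RNA for 227, of a transposable element for 153, of a tRNA for 15, of a pseudogene for 6 and of a snoRNA for 5. If transposable elements were not counted as genes, 1164 regions met the rule. None of the 997 overlapped the 250-bp window of a coding TSS, and 26 had an edge inside a gene.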

How the data were processed

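Per the labels and the study's methods, the authors aligned the reads with Bowtie 1.2.2 to dm6 and kept those with 1 alignment. Ends were offset by 4 and 5 bp for the transposase, peaks were called per replicate with MACS2 2.1.1.20160309 (q threshold 0.01), and regions open in at least 2 of 3 replicates were merged. The deposited values are positions only, with no score or count. The study lists read totals of the libraries, which are not used here, since they do not give the depth of a region.

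The regions, counted from 1, were compared with Ensembl release 115 (BDGP6.54) and Release 6 sequence on 7 arms. Members and lists were chosen with earlier results of these data known. Eligible sequence is that which could hold a midpoint. Ratios were tested on the log scale by a two-sided Wald test with a linearised standard error over 1-Mb blocks, which share neighbouring regions, with Benjamini-Hochberg adjustment over 20 motifs, all 6-mers or 3 orientations. Blocks are not biological replicates, and Wilson intervals cover counting error only. Before use the test was run on simulated 6-mer counts, drawn independently and placed in blocks at random. Such counts do not check it for neighbouring regions that resemble each other, or for motifs as rare as Su(Hw) in the flanks.

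Motifs were searched on both strands in 200-bp windows. Besides those spelled out in the report they were CCGGAA (ETS), ACCACA (Runx), TTCNNNGAA (STAT), CACGTG (E-box), ATGCGGGT (Gcm), CAGGTAG (Zelda), AGGTCA (nuclear receptor half-site), GCCATTTT (Pho) and the NF-kB site. TAATTA can overlap TGATTNAT, and a match is a string of letters, not a bound site. Named regions were the 10 widest, the 5 farthest from a TSS, the 5 fullest intervals, and up to 3 genes a list. Printed windows were those with the most matches outside the right arm of chromosome 2, ties going to the wider region. Python 3.11.15, numpy 2.4.6, scipy 1.17.1 and pandas 2.3.3 were used.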

Additional observations from a re-analysis of the deposited data

How the results depend on the processing

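Results were recomputed under 13 alternatives. Those with transposable elements not counted as genes or with unique 31-mers only were chosen after seeing the data, as were all those of the share of coding genes and of regions with a motif against those without, and those of the number of regions by masking and arm. Of 245 tested ratios and differences, 211 kept their direction and side of the threshold, and none reversed with a call. Of 118 counts and shares, 91 stayed within 1.5 times the main count or within the 95% interval of the main share. The number of regions was 1621 with protein-coding genes only and 415 at 300 bp or wider. The width ratio to far intronic regions was 0.968 at 200 bp or wider. The divergent ratio was 1.44 at 500 bp from every TSS. The share of intervals with a region was 11.0% at 200 bp or wider and 13.4% without masked sequence, and that of coding genes was 13.4% and 16.1%, 19.3% at 500 bp and 18.8% with transposable elements not counted as genes. Of 6-mers against far intronic regions, 3 were higher and 2 lower at 2 kb, 41 and 23 at 500 bp, 21 and 14 with 300-bp windows, 18 and 10 with transposable elements not counted as genes, and 0 and 0 at 200 bp or wider. Against the flanks 103 were lower without masked sequence. Motifs higher than in far intronic regions numbered 0 at 2 kb and without masked sequence, 3 at 500 bp and 2 with transposable elements not counted as genes, and 0 were lower at 2 kb. Motifs lower than in the flanks numbered 1 with 300-bp windows and in unique 31-mers, and 4 at 500 bp. The causes were not tested. No paired analysis was possible because the list combines the replicates, so no replicate could be left out either. The list has no read numbers, so what depth limits could not be measured.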
